A study of Mus musculus with 12 samples.

Results

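The genes studied here encode 8 components of perineuronal nets: the chondroitin sulfate proteoglycans Acan (aggrecan), Bcan (brevican) and Ncan (neurocan), the link proteins Hapln1 and Hapln4, the cross-linking glycoprotein Tnr (tenascin-R), and the hyaluronan synthases Has2 and Has3. They were chosen by name, and all 8 were found among the 55678 gene names of the table. Of these, 5 (Bcan, Ncan, Tnr, Hapln1 and Hapln4) reached 1 TPM in at least 3 libraries and were tested together with 16423 genes in all. Acan, Has2 and Has3 stayed below that level and were described only.

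RNA was measured in 12 libraries of mouse medial prefrontal cortex in 4 groups of 3. The groups crossed strain with treatment. The inbred strains were C57BL/6JmsSlc, called B6 here, and BALB/cCrSlc, called BALB/c, and the treatment was chronic restraint stress (CRS) or handling only. CRS mice spent 6 h a day for 21 days in polyethylene restrainers in the home cage, and controls were handled without restraint. Mice were 9 to 10 weeks old, and a 1.5 mm punch was taken after behavioural testing, so that all groups had been through the tests (sex is not among the labels). A library is named here by its group and the number in its title.

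A perineuronal net is a lattice of extracellular matrix around the cell body and proximal dendrites of certain neurons, in cortex mainly the fast-spiking interneurons that express parvalbumin. Hyaluronan synthases at the cell surface extrude the hyaluronan backbone, lecticans (the family of Acan, Bcan and Ncan) bind it with their N-terminal domain, link proteins lock that bond, and tenascin-R joins the C-terminal ends of lecticans into a mesh. Only part of this RNA belongs to nets: Bcan and Ncan are also made by glia for the loose matrix between cells, and Tnr by oligodendrocyte lineage cells and some neurons.

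In GENCODE M21 (GRCm38), Bcan lies on the minus strand of chr3:87987531-88000230, Ncan on the minus strand of chr8:70093085-70120873 and Acan on the plus strand of chr7:79053483-79115099. Hapln1 lies on the plus strand of chr13:89539796-89611652, Hapln4 on the plus strand of chr8:70083457-70090862 and Tnr on the plus strand of chr1:159523769-159931729. Has2 lies on the minus strand of chr15:56665627-56694539 and Has3 on the plus strand of chr8:106870242-106884566. Each lectican gene neighbours a link protein gene. Ncan and Hapln4 face each other tail to tail 2222 bases apart, as do Acan and Hapln3 (2 bases apart) and Vcan and Hapln1 (43659 bases apart), while Hapln2 lies 21519 bases from Bcan on the same strand. Genes annotated on the other strand overlap Hapln1 (Gm8546), Tnr (Gm38039), Has2 (Has2os) and Has3 (Chtf8). Whether strand was used in the quantification is not given in the sources used here, so reads of such partners may be included in those 4 values.

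The RefSeq table of gene starts (GRCm38.p6) held an entry for 5 of the 8 genes, and Has2, Has3 and Hapln4 had none. The windows of Bcan and Tnr are shown because Bcan is a member that differed between strains and Tnr one for which no difference was called. Each is the 250 bases before the RefSeq start, 5′ to 3′ in the orientation of the gene, at chr3:88000357-88000606 (minus strand) for Bcan and chr1:159523519-159523768 (plus strand) for Tnr. The RefSeq start of Bcan lies outside the gene as annotated in M21, which ends at 88000230. Bases after the start were found in an M21 transcript of the gene for Tnr but not for Bcan, so the 2 sources place the Bcan start differently. Capitals mark a CCAAT box (the letters CCAAT), a GC box (the letters GGGCGG) or a TATA box (the letters TATAAA) on either strand; the matches do not overlap.
Bcan: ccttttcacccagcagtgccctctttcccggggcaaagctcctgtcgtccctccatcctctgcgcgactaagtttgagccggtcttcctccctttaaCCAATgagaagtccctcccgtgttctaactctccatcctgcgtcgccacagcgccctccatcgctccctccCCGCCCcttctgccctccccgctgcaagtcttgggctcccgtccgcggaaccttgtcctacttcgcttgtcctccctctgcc
Tnr: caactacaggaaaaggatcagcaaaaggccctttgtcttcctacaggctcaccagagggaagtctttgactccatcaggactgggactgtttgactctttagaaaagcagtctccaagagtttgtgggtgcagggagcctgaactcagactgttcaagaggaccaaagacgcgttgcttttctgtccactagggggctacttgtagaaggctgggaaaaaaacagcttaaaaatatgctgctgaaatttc
The Bcan window had a GC content of 62.0%, 1 CCAAT box and 1 GC box, the latter on the other strand. The Tnr window had a GC content of 46.8% and none of these letters. Of 32851 windows of the same length in that table, 33.85% held a CCAAT box, 32.742% a GC box and 12.368% a TATA box by the same letters, so such matches are common. The reference is that of the C57BL/6J strain, and the BALB/c sequence was not analysed here.

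The libraries carried the RNA of cortical tissue in every case. The cortical glutamate transporter Slc17a7 was at 390 to 1074 TPM, the astrocyte gene Gfap at 31.5 to 156 TPM, and Pvalb, which encodes parvalbumin, at 14.3 to 68.8 TPM. Striatal neuron and myelin genes differed strongly between libraries and strains. The summed level of 10 striatal medium spiny neuron genes was 2997, 469 and 234 TPM in B6 controls 2, 3 and 9 and 2453, 1809 and 947 TPM in B6 CRS libraries 12, 13 and 14, against 130 to 393 TPM in the 6 BALB/c libraries. Among them the enkephalin precursor gene Penk spanned 27.6 to 1182 TPM, and the dopamine receptor gene Drd2 spanned 1.09 to 69.1 TPM. The summed level of 9 myelin genes ranged from 2583 to 9914 TPM in B6 and from 489 to 3157 TPM in BALB/c, with the myelin protein gene Mbp at 257 to 5002 TPM. None of these 19 genes was at 0 in every library of the series. B6 control 9 had the lowest striatal and myelin sums of its strain. In such bulk tissue, fewer cells of a type and less RNA per cell cannot be told apart.

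By level per length, the order of the 8 genes was led by the lecticans other than Acan. Over the 12 libraries the means were 109.6 ± 19.9 TPM for Bcan, 50.5 ± 8.36 TPM for Ncan, 33.9 ± 14.9 TPM for Hapln4, 26.8 ± 4.89 TPM for Tnr and 10.9 ± 3.71 TPM for Hapln1 (SD, n = 12). Acan, whose proteoglycan is the usual marker protein of cortical nets, was at 0.620 ± 0.252 TPM, Has3 at 0.390 ± 0.125 TPM and Has2 at 0.106 ± 0.0589 TPM (SD, n = 12). Hapln4 and Tnr did not differ beyond their spread in this order, and the same was true of Acan and Has3.

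**Figure D1:**
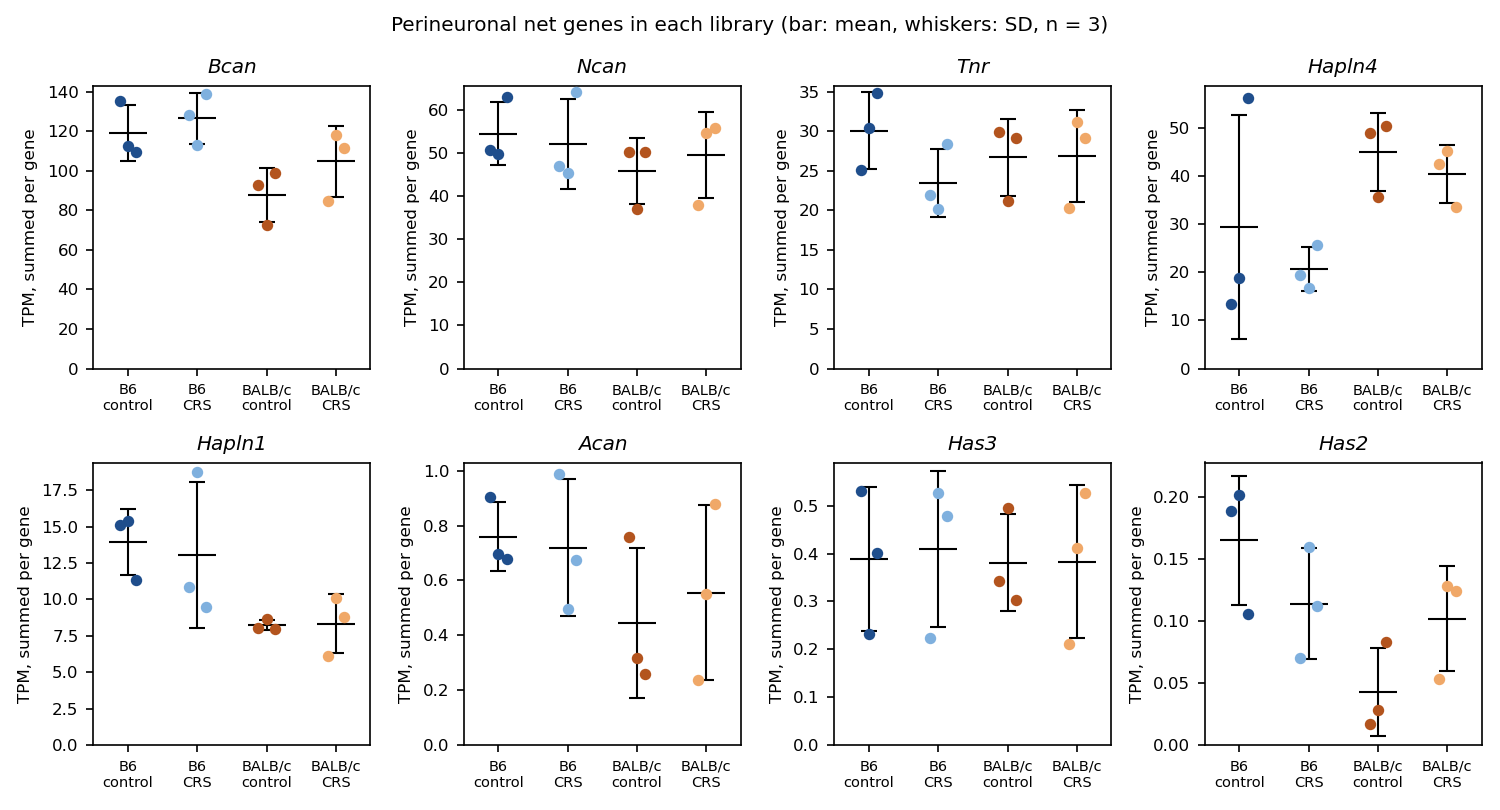
TPM of each of the 8 genes (vertical axes, from 0, a scale of its own per gene) in the 4 groups; each point is a library, the bar the group mean and the whiskers the SD (n = 3). Bcan and Hapln1 lie lower and Hapln4 higher in BALB/c, where B6 control 9 is the B6 library at 56.3 TPM of Hapln4.

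The first question was whether the strains differ in net components. Averaged over both treatments, Bcan and Hapln1 were lower and Hapln4 was higher in BALB/c than in B6, and no difference was called for Ncan and Tnr (limma on log2(TPM + 1), Benjamini-Hochberg over all tested genes, threshold 0.05). These 3 calls among 5 tested members stand against 18.4% of all tested genes called in this comparison. By direction, 4.05% of all genes were called higher in BALB/c and 14.3% lower. The median gene was 0.08 lower in BALB/c on the log2 scale, and after median-of-ratios scaling, which moved that median to 0.00, the split of 665 genes higher and 2356 lower became 1474 and 1724. In controls alone, with 4.73% of all genes called, and under CRS alone, with 7.7% called, none of the 5 passed; in each of these comparisons 2 members had an unadjusted p under 0.05, as had 3073 and 3908 of the 16423 genes (limma).

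Brevican is the most abundant lectican of the adult brain and can remain without chondroitin sulfate chains. In B6, Bcan was at 135, 113 and 109 TPM in controls 2, 3 and 9 and at 128, 113 and 139 TPM in CRS libraries 12, 13 and 14. In BALB/c it was at 92.6, 72.6 and 98.7 TPM in controls 5, 9 and 10 and at 84.6, 118 and 111 TPM in CRS libraries 12, 13 and 15. Every BALB/c control lay below every B6 library, and 2 of the 3 BALB/c CRS libraries reached the B6 range. The strain means were 96.3 ± 16.9 TPM in BALB/c and 122.8 ± 12.8 TPM in B6 (SD, n = 6 each). The log2 difference was -0.36 (SE 0.11, 95% interval -0.60 to -0.12, adjusted p = 0.0395, limma), or 0.78 of the B6 level. An exact permutation of strain labels within treatments (400 relabellings, two-sided, smallest possible p 0.005) gave p = 0.01 for Bcan. Permutation p-values of strain and CRS effects, here and below, are not adjusted for the 16 such tests. The call was lost after median-of-ratios scaling, where the difference was -0.27 (adjusted p = 0.056, limma), without the filter on low values (adjusted p = 0.074, limma), and in 8 of the 12 fits that left out 1 library, with adjusted p from 0.033 to 0.089 over the 12 (limma). The 8 were those without B6 control 2 or 3, B6 CRS 12 or 14, BALB/c control 5 or 9, or BALB/c CRS 12 or 15.

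Neurocan is the lectican most tied to development, when it is abundant before nets close. Ncan measured 50.8, 49.8 and 63.0 TPM in B6 controls, 47.0, 45.4 and 64.2 TPM in B6 CRS libraries, 50.3, 37.0 and 50.4 TPM in BALB/c controls and 37.97, 54.7 and 55.8 TPM in BALB/c CRS libraries. The groups overlapped, with 2 of the 6 BALB/c libraries below the lowest of B6. The strain difference in log2 was -0.16 (95% interval -0.45 to 0.13, adjusted p = 0.43, limma).

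Aggrecan RNA was low in every library. Acan measured 0.904, 0.696 and 0.677 TPM in B6 controls, 0.989, 0.497 and 0.674 TPM in B6 CRS libraries, 0.760, 0.318 and 0.261 TPM in BALB/c controls and 0.239, 0.551 and 0.878 TPM in BALB/c CRS libraries. Of the 6 BALB/c libraries, 3 lay below all of B6 and 3 within its range. The strain means were 0.501 ± 0.273 TPM in BALB/c and 0.740 ± 0.178 TPM in B6 (SD, n = 6 each), and the exact permutation gave p = 0.105. In a fit with no filter on low values the log2 difference was -0.23 (adjusted p = 0.35, limma).

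The link proteins stabilise the bond between lecticans and hyaluronan, and the 2 measured here went in opposite directions. Hapln1, the link protein found in cartilage as well as in nets, measured 15.1, 15.4 and 11.3 TPM in B6 controls and 10.8, 18.8 and 9.50 TPM in B6 CRS libraries. In BALB/c, Hapln1 was at 8.04, 8.63 and 7.99 TPM in controls and at 6.13, 10.1 and 8.80 TPM in CRS libraries. All 3 BALB/c controls lay below all 6 B6 libraries, and BALB/c CRS 13 alone exceeded the lowest B6 library. The strain means were 8.28 ± 1.30 TPM and 13.5 ± 3.51 TPM (SD, n = 6 each). The log2 difference was -0.62 (SE 0.16, 95% interval -0.98 to -0.27, adjusted p = 0.0211, limma), or 0.65 of the B6 level, with p = 0.01 by exact permutation. It was called in 9 of the 12 fits that left out 1 library, and lost at adjusted p of 0.051 to 0.052 (limma) without B6 control 3, BALB/c control 10 or BALB/c CRS 12.

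Hapln4, or brain link protein 2, is known for its place in nets and around perisomatic inhibitory synapses. In B6 it was at 13.4, 18.8 and 56.3 TPM in controls 2, 3 and 9 and at 19.5, 16.8 and 25.7 TPM in CRS libraries. In BALB/c, Hapln4 was at 49.1, 35.8 and 50.4 TPM in controls and at 42.5, 45.3 and 33.7 TPM in CRS libraries. Every BALB/c library lay above 5 of the 6 B6 libraries and below B6 control 9. The strain means were 42.8 ± 6.87 TPM in BALB/c and 25.1 ± 15.8 TPM in B6 (SD, n = 6 each). The log2 difference was 0.90 (SE 0.28, 95% interval 0.30 to 1.50, adjusted p = 0.0408, limma), or 1.86 times the B6 level, with p = 0.025 by exact permutation. Without B6 control 9 the difference was 1.19 (adjusted p = 0.00025, limma), and in controls alone it went from 0.85 (adjusted p = 0.27, limma) to 1.43 (adjusted p = 0.0027, limma). The call was kept in the fits without B6 control 9, B6 CRS 14 or BALB/c control 9, and lost in the other 9 that left out 1 library, with the highest adjusted p at 0.093 (limma), and was lost without the filter on low values (adjusted p = 0.093, limma).

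**Figure D2:**
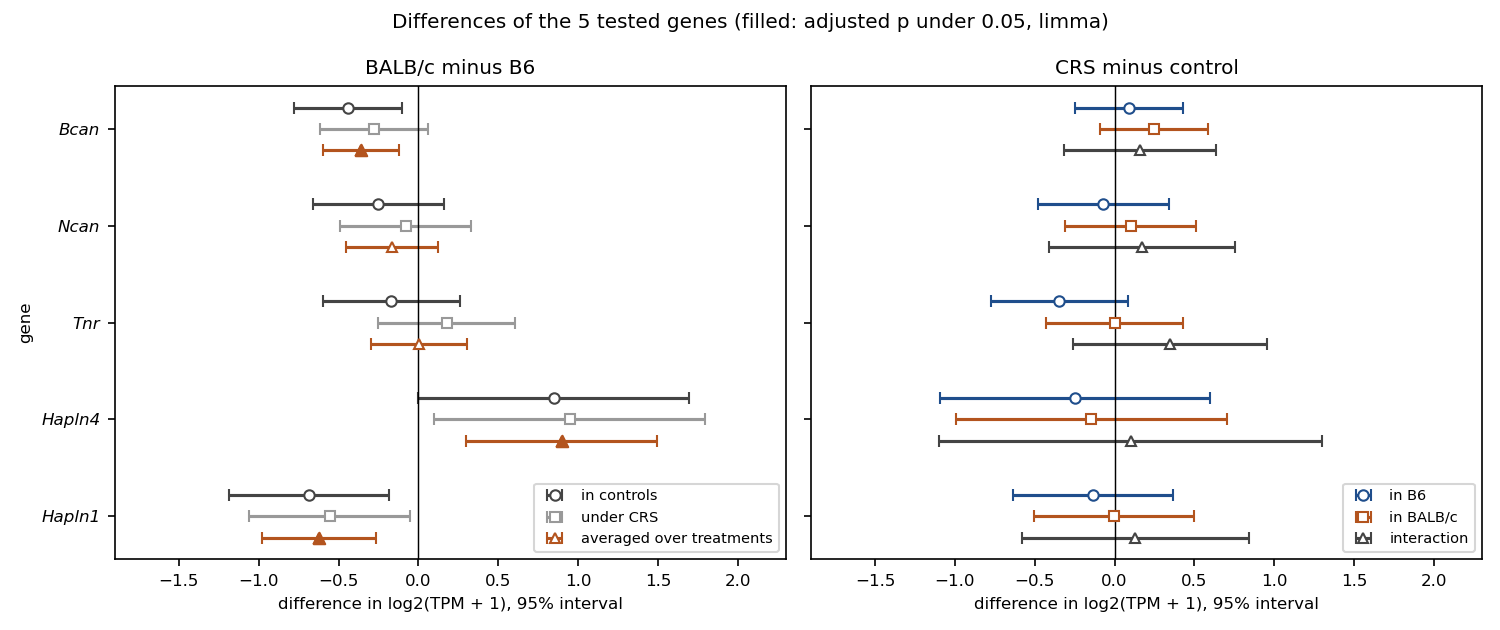
Fitted log2(TPM + 1) differences of the 5 tested genes with 95% intervals (horizontal axes); left, BALB/c minus B6 in controls, under CRS and averaged; right, CRS minus control in each strain and the interaction. Filled symbols passed an adjusted p of 0.05: Bcan, Hapln1 and Hapln4 in the averaged strain comparison, and none on the right.

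The ratio of the link proteins differed widely between libraries. Hapln4 over Hapln1, per length, was 0.887, 1.22 and 4.96 in B6 controls and 1.80, 0.893 and 2.71 in B6 CRS libraries. The ratio was 6.11, 4.15 and 6.31 in BALB/c controls and 6.94, 4.50 and 3.83 in BALB/c CRS libraries. B6 control 9 was the B6 library within the BALB/c range. The ratio was chosen after the values were seen and was not tested.

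Tenascin-R is a trimer that binds lecticans in the mature net. Tnr measured 25.1, 30.4 and 34.8 TPM in B6 controls, 21.96, 20.2 and 28.4 TPM in B6 CRS libraries, 29.9, 21.1 and 29.1 TPM in BALB/c controls and 20.3, 31.2 and 29.2 TPM in BALB/c CRS libraries. The strain means were 26.8 ± 4.78 TPM in BALB/c and 26.8 ± 5.46 TPM in B6 (SD, n = 6 each), and the groups overlapped almost fully. The log2 difference was 0.00 (95% interval -0.30 to 0.31, adjusted p = 0.99, limma).

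Has2 and Has3, which make the hyaluronan backbone, were the lowest of the 8. Has2 measured 0.189, 0.201 and 0.106 TPM in B6 controls, 0.0703, 0.159 and 0.112 TPM in B6 CRS libraries, 0.0168, 0.0283 and 0.0827 TPM in BALB/c controls and 0.0530, 0.124 and 0.128 TPM in BALB/c CRS libraries. Of the 6 BALB/c libraries, 3 lay below all of B6, and the exact permutation gave p = 0.055. Has3 was between 0.223 and 0.532 TPM in B6 and between 0.212 and 0.527 TPM in BALB/c, with p = 0.85 by exact permutation. With no filter on low values, the strain difference in log2 was -0.09 for Has2 (adjusted p = 0.18, limma) and -0.02 for Has3 (adjusted p = 0.93, limma). The scale of log2(TPM + 1) understates changes at these levels, and depth is unknown for TPM, so their counting error could not be given.

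Counted by groups that do not overlap, Bcan and Hapln1 separated BALB/c from B6 in controls, where 22.9% of all tested genes did so in either direction. Under CRS it was Hapln4, against 29.3% of all tested genes. None of the 5 separated all 6 BALB/c from all 6 B6 libraries, against 8.95% of genes. The positions against all 6 B6 libraries given above for Bcan, Hapln1 and Hapln4 were not counted over all tested genes. Those positions are therefore not shown to be particular to these members.

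Averaged over treatments, all 19 myelin and striatal genes described above were also called lower in BALB/c. The striatal gene Gpr6 reached 1 TPM in 5 B6 libraries and 1 BALB/c library, so it passed the filter on low values only through B6. A second fit took the mean log2 level of each of these 2 lists as covariates. In controls alone, 1 of the 5 members had an unadjusted p under 0.05 in that fit, as had 1690 of all genes, and none was called (limma). Averaged over treatments, none of the 5 was called and none had an unadjusted p under 0.05 (smallest adjusted p = 0.38 for Ncan, limma). Of all genes, 408 were called there in place of 3021. The averaged Bcan difference was -0.36 with covariates (adjusted p = 0.46) as without. The Hapln1 difference went from -0.62 to -0.20 (adjusted p = 0.75), and that of Hapln4 from 0.90 to -0.23 (adjusted p = 0.74, limma). The Ncan difference went from -0.16 to -0.47 (adjusted p = 0.38, limma) and that of Tnr from 0.00 to -0.35. Strain and these scores were closely tied in this design, so what belongs to either cannot be told apart.

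**Figure D3:**
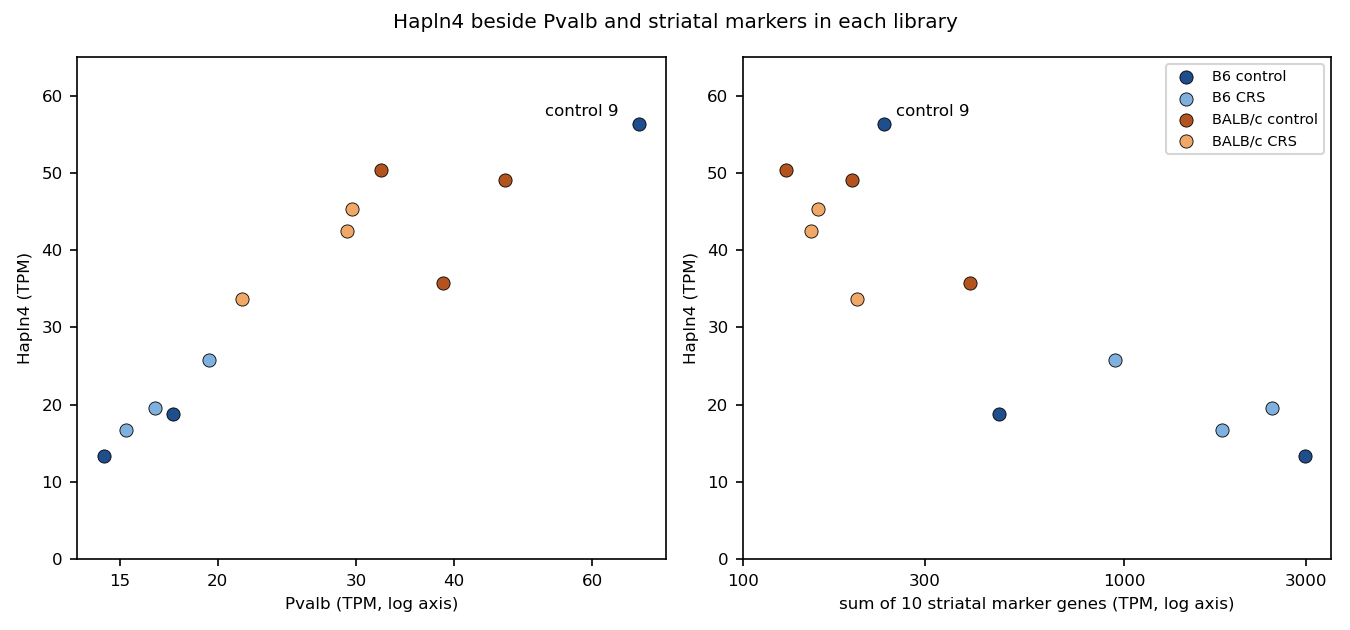
Hapln4 in TPM (vertical axes, from 0) against Pvalb in TPM (left) and against the summed TPM of 10 striatal genes (right), both on log axes, with 1 point per library. The B6 library at 56.3 TPM of Hapln4, control 9, has the highest Pvalb level (68.8 TPM) and the lowest striatal sum of its strain (234 TPM).

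Parvalbumin interneurons carry most cortical nets, so each member was set beside Pvalb within a strain (6 libraries, log2 scale, 16 relations in all, exact permutation over 720 pairings). In B6, Pvalb was at 14.3, 17.6 and 68.8 TPM in controls and 16.6, 15.3 and 19.5 TPM in CRS libraries, and Hapln4 followed it with r = 0.966 (exact permutation p = 0.00278, adjusted 0.0445). The rank correlation was rho = 0.943 (exact permutation p = 0.0167, adjusted 0.267), and r was 0.933 without B6 controls 9 and 2, the libraries farthest from the median. In BALB/c, Pvalb was at 46.4, 38.7 and 32.3 TPM in controls and 29.2, 29.7 and 21.5 TPM in CRS libraries. There Hapln4 had r = 0.504 (exact permutation p = 0.321, adjusted 0.803) and rho = 0.543 (exact permutation p = 0.297, adjusted 0.711), and r was -0.657 without BALB/c control 5 and CRS 15, so the relation there rested on those libraries. The B6 library with the highest Hapln4, control 9, had the lowest striatal sum of its strain, and that with the lowest Hapln4, control 2, the highest; the part of the striatal genes in the relation was not tested. Among the other 14 relations the smallest adjusted p of r was 0.215 (exact permutation), for Tnr in B6 (r = 0.736) and Has2 in BALB/c (r = -0.833). Pvalb itself was not called between strains (log2 difference 0.58, adjusted p = 0.21, limma).

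The second question was whether restraint changed these genes. None of the 5 tested members was called for CRS in B6, where 0% of all genes were called, in BALB/c (0.00609%, 1 gene), or averaged over strains (0.00609%, 1 gene), and none had an unadjusted p under 0.05 (limma). Over all genes, 792, 497 and 849 had an unadjusted p under 0.05 in these 3 comparisons. No member separated the 3 CRS from the 3 control libraries of a strain, which 8.33% of all tested genes did in B6 and 7.39% did in BALB/c. The smallest exact permutation p of the averaged effect over the 8 genes was 0.16, for Bcan.

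For Bcan the group means were 119 ± 14.1 TPM in B6 controls, 127 ± 13.0 TPM in B6 CRS, 87.9 ± 13.7 TPM in BALB/c controls and 104.8 ± 17.8 TPM in BALB/c CRS (SD, n = 3). Its CRS difference in log2 was 0.09 in B6 (95% interval -0.25 to 0.43) and 0.25 in BALB/c (-0.09 to 0.58). For Tnr the means were 30.1 ± 4.84 TPM in B6 controls and 23.5 ± 4.29 TPM in B6 CRS, and in BALB/c 26.7 ± 4.83 TPM and 26.9 ± 5.81 TPM (SD, n = 3). The log2 difference of Tnr was -0.35 in B6 (95% interval -0.77 to 0.08) and 0.00 in BALB/c (-0.43 to 0.43). Both pairs of groups overlapped for each gene.

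Hapln1 had means of 13.9 ± 2.26 TPM and 13.0 ± 5.01 TPM in B6 controls and CRS, and in BALB/c 8.22 ± 0.353 TPM and 8.34 ± 2.02 TPM (SD, n = 3). Its CRS difference in log2 was -0.14 in B6 (95% interval -0.64 to 0.37) and -0.01 in BALB/c (-0.51 to 0.50). Ncan differed by -0.07 in B6 (-0.48 to 0.34) and 0.10 in BALB/c (-0.31 to 0.51). Hapln4 had means of 29.5 ± 23.4 TPM and 20.7 ± 4.60 TPM in B6 controls and CRS, and in BALB/c 45.1 ± 8.08 TPM and 40.5 ± 6.09 TPM (SD, n = 3). Its difference was -0.25 in B6 (-1.10 to 0.60) and -0.15 in BALB/c (-0.99 to 0.70). In B6 that direction came from control 9, without which the difference was 0.34 (adjusted p = 1.0, limma). Among the 5 genes the intervals were widest for Hapln4.

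The third question was whether restraint acted differently in the strains. No member was called for the interaction, the CRS effect in BALB/c minus that in B6, where 0% of all genes were called and 443 genes had an unadjusted p under 0.05 (limma). The interaction in log2 was 0.35 for Tnr (95% interval -0.26 to 0.95), 0.17 for Ncan (-0.41 to 0.75), 0.16 for Bcan (-0.32 to 0.64), 0.13 for Hapln1 (-0.58 to 0.84) and 0.10 for Hapln4 (-1.10 to 1.30), with an adjusted p of 1.00 for each. The striatal list moved beside these values. Its median CRS difference was 1.21 in B6 and -0.36 in BALB/c, and none of its 10 genes was called. In the fit with myelin and striatal scores no member was called for the interaction, and that of Hapln4 changed sign. The part of the striatal genes in these values was not tested beyond that fit.

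The table lists apparently 1 row per transcript under a shared gene name, and the number of rows of each member equalled its number of transcripts in GENCODE M21. Ncan and Has2 had 1 row, Acan and Hapln1 2, Hapln4 and Has3 3, Tnr 5 and Bcan 6. A single row held 91.2% of the mean level of Hapln4, 88.9% of Tnr and 71.7% of Bcan, and 58.6% of Hapln1. The strain difference of Hapln1 was larger in its leading row. Row 1 measured 9.44, 10.1 and 6.16 TPM in B6 controls, 6.39, 13.0 and 5.00 TPM in B6 CRS libraries, 4.14, 4.80 and 4.47 TPM in BALB/c controls and 2.99, 6.01 and 4.03 TPM in BALB/c CRS libraries. Row 2 was at 4.46 to 5.78 TPM in B6 and 3.14 to 4.78 TPM in BALB/c. The leading row alone gave a log2 difference of -0.75 for Hapln1 (adjusted p = 0.029), -0.34 for Bcan (adjusted p = 0.028) and 0.94 for Hapln4 (adjusted p = 0.037, limma). In BALB/c CRS 12, Bcan had 14.0 TPM on a row that was at 0 to 3.27 TPM in the other 11 libraries, and 4.04 TPM on its second row, which was at 12.5 to 27.0 TPM in the others. Short-read estimates can shift TPM between transcripts of a gene, and no transcript names are paired with the rows.

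**Figure D4:**
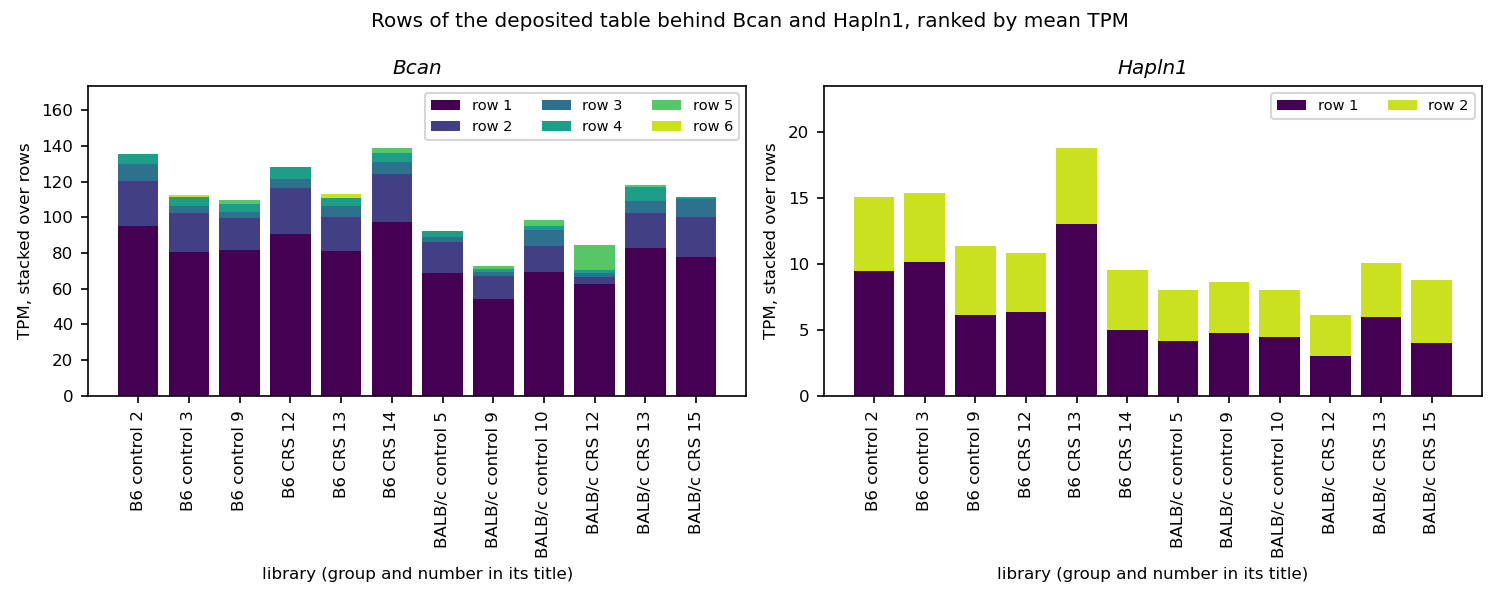
TPM of each row of the table (stacked, vertical axes from 0) for Bcan (6 rows) and Hapln1 (2 rows) in the 12 libraries. Row 1 holds 71.7% of the mean of Bcan and 58.6% of that of Hapln1, and BALB/c CRS 12 stands out by row 5 of Bcan at 14.0 TPM.

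Some pairs of members varied together within groups. With group means removed, Ncan and Tnr had r = 0.951 over the 12 libraries, Bcan and Ncan 0.717, and Bcan and Tnr 0.635. Hapln4 had r = 0.934 with Pvalb, 0.576 with Tnr, 0.522 with Ncan and -0.077 with Bcan. The r with Pvalb pools the strains. It includes B6 control 9, far above its group in Hapln4 (56.3 TPM) and in Pvalb (68.8 TPM). In BALB/c alone, with group means kept, r was 0.504 (exact permutation p = 0.321). Hapln1 had r = -0.520 with Hapln4, -0.169 with Ncan, -0.137 with Tnr and 0.0835 with Bcan. These are descriptions over libraries that share a fixed total. The values were not scaled by median of ratios, whose factors ran from 0.875 (BALB/c CRS 12) to 1.10 (B6 CRS 14). In those libraries Ncan was at 37.97 and 64.2 TPM and Tnr at 20.3 and 28.4 TPM. The part of such library-wide shifts in these r values, and in those of the genes named next, was not tested. The tested genes most like each member by this measure included Grik5 and Ttbk1 for Ncan (r = 0.997 and 0.985) and were Mef2d, Cds2 and Scaf1 for Tnr (0.984 to 0.991). They were Armc5, Rhobtb2 and Gigyf1 for Bcan (0.968 to 0.978), Plcxd2, Fbxl2 and Scube1 for Hapln4 (0.974 to 0.980) and Clk4, Map4k5 and Edil3 for Hapln1 (0.924 to 0.956). Edil3 is the annotated neighbour of Hapln1 on chromosome 13, 216572 bases away.

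In 4 lists of other net-related genes, 10 of 56 tested genes were called between strains, a share near the 18.4% of all tested genes. The 56 include Otx2, described below, which entered the test only through B6. Of 9 other lecticans, link proteins, tenascins and proteoglycans, 7 were tested and 2 called, both lower, where 14.3% of all tested genes were called lower. Hapln2, the link protein of myelinated axons' nodes of Ranvier, was at 5.49 ± 2.78 TPM in BALB/c and 19.8 ± 8.22 TPM in B6 (SD, n = 6 each; log2 difference -1.69, adjusted p = 0.00598, limma). Vcan (versican), the lectican whose gene neighbours Hapln1, was at 3.69 ± 0.617 TPM and 6.36 ± 1.47 TPM (SD, n = 6 each; log2 difference -0.63, adjusted p = 0.0148, limma). Hapln3 went the other way by 0.43 without passing the test (adjusted p = 0.105, limma). The list had a median of -0.14, beside -0.08 over all tested genes, and of -0.05 after median-of-ratios scaling, with the same count of calls.

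The enzymes that build and sulfate chondroitin sulfate chains had a median of -0.03 (0.06 after median-of-ratios scaling), and 1 of 21 tested genes was called (1 higher and 1 lower after that scaling). This was Ust, a uronyl sulfotransferase, at 5.03 ± 0.981 TPM in BALB/c and 9.16 ± 3.53 TPM in B6 (SD, n = 6 each; log2 difference -0.71, adjusted p = 0.0162, limma). Among 13 tested proteases, hyaluronidases and inhibitors that act on nets, 3 were called, all lower (14.3% over all tested genes), with a list median of -0.03; after median-of-ratios scaling 1 was called higher and 3 lower, with a median of 0.05. The lectican-cleaving protease Adamts4 was at 2.78 ± 1.76 TPM in BALB/c and 12.7 ± 5.73 TPM in B6 (SD, n = 6 each; log2 difference -1.88, adjusted p = 0.00277, limma). The metalloproteinase inhibitors Timp3 (-0.55) and Timp4 (-0.45) were lower by less (adjusted p = 0.0065 and 0.018, limma).

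Of 15 tested ligands and receptors linked to nets, 1 was called higher and 3 lower, near the 4.05% and 14.3% of all tested genes, and the list median was 0.15 (3 higher, 3 lower and 0.24 after median-of-ratios scaling). Rtn4r, the Nogo receptor, was at 79.3 ± 13.5 TPM in BALB/c and 45.2 ± 22.3 TPM in B6 (SD, n = 6 each; log2 difference 0.93, adjusted p = 0.0352, limma). Otx2, a homeoprotein that net-bearing neurons take up from outside the cell, was at 0.155 ± 0.122 TPM and 1.32 ± 1.12 TPM (SD, n = 6 each). It reached 1 TPM in 3 libraries, all of B6, and was at most 0.300 TPM in BALB/c, so it entered the test only through the strain where it was high. The heparin-binding growth factors Mdk (-0.69, adjusted p = 0.0185) and Ptn (-0.42, adjusted p = 0.0051, limma) were also lower. No gene of these 4 lists was called for CRS in B6, in BALB/c, averaged, or in the interaction (limma), where 4, 2, 4 and 0 of 56 had an unadjusted p under 0.05. With the myelin and striatal scores as covariates, none was called between strains averaged over treatments.

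Cell type markers that moved beside these strain differences were counted in the same comparison, in which 4.05% of all tested genes were called higher and 14.3% lower; with lists this short, 1 or 2 lower genes are near that share. Of the parvalbumin interneuron list, 3 of 10 genes were lower in BALB/c (Slc32a1 by -0.87, Gad2 by -0.75 and Gad1 by -0.50), which serve all GABA neurons, striatal ones included, and the median was 0.06. The summed level of that list was 339 to 590 TPM in B6 and 271 to 395 TPM in BALB/c. These 3 genes have the highest means of the list and so lead its sum. Gad1 alone was at 126 ± 26.5 TPM in BALB/c and 180 ± 45.6 TPM in B6 (SD, n = 6 each). The other genes of the list went in both directions and none was called. Pvalb lay higher in BALB/c, at 33.0 ± 8.61 TPM against 25.3 ± 21.4 TPM (SD, n = 6 each). Of 9 excitatory neuron genes 3 were higher, among them Cux2 by 1.03 and Neurod6 by 0.78, with sums of 1264 to 2598 TPM in B6 and 1726 to 2391 TPM in BALB/c. Of 10 astrocyte genes 3 were lower (Aqp4 by -0.56, Aldoc and Gja1 by -0.44), with sums of 1432 to 1659 TPM and 1072 to 1393 TPM. Of 7 oligodendrocyte precursor genes 4 were lower, led by Sox10 (-1.42) and Olig1 (-0.72), with sums of 140 to 278 TPM in B6 and 84.8 to 133 TPM in BALB/c. Others of that list lay closer together. Pdgfra was at 13.0 ± 2.42 TPM in BALB/c and 15.0 ± 2.46 TPM in B6, and Cspg4 at 3.66 ± 1.00 TPM and 4.40 ± 0.521 TPM (SD, n = 6 each). All 9 myelin genes (median -2.24, led by Mal at -2.48 and Mobp at -2.35) and all 10 striatal genes (median -2.38, led by Adora2a at -3.16 and Penk at -2.91) were lower. In the remaining lists, C1qa of 6 microglial genes (-0.28), Slc2a1 of 5 endothelial genes (-0.26) and Igf2 (-1.08) and Folr1 (-0.79) of 8 meningeal and choroid plexus genes were lower. Folr1 and the striatal gene Gpr6 passed the filter on low values only through B6. None of the genes of these 9 lists was at 0 in every library. After median-of-ratios scaling, C1qa and Slc2a1 were not called. The part of these cell types in the differences of Bcan, Hapln1 and Hapln4 was not tested beyond the fit with myelin and striatal scores.

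**Figure D5:**
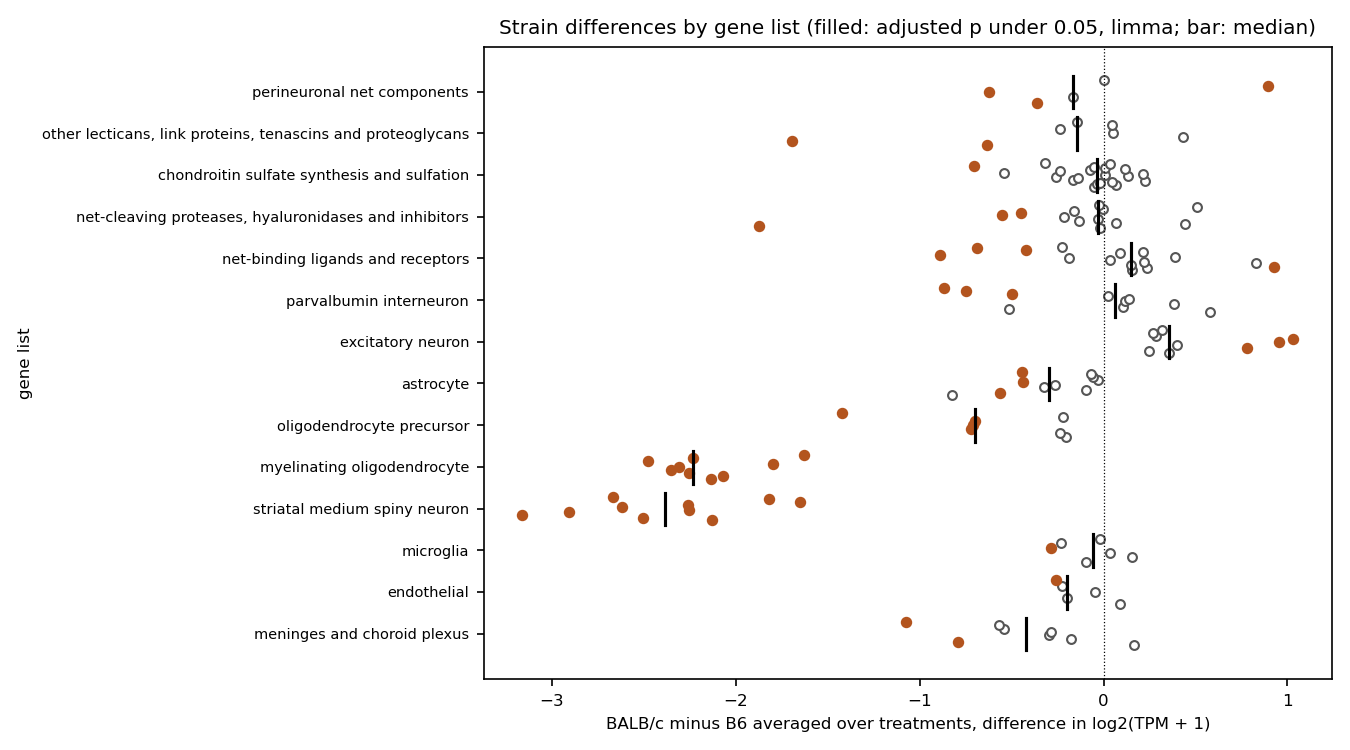
BALB/c minus B6 averaged over treatments, as the log2(TPM + 1) difference (horizontal axis), for each tested gene of the net components and of 13 other lists (vertical axis); filled points passed an adjusted p of 0.05 and the bar is the list median. The myelin and striatal lists lie near -2, with medians of -2.24 and -2.38, while the net components spread to both sides of 0 from -0.62 to 0.90.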

How the data were processed

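The authors deposited a single table for the series with 147902 rows, each with a gene name, and a column of TPM (transcript abundance corrected for length and set to a fixed total) per library; each column summed to 1000000. That unit was read from the totals. Per the submitters' processing notes, cutadapt 2.9 and Salmon were used with GRCm38; the annotation, strand setting and Salmon version are not given in the sources used here. Per the labels' protocols, libraries were stranded and poly(A)-selected, with paired 150 bp reads and about 6 Gb each. TPM keeps no depth, so precision rests on the spread between libraries; nothing in the labels says in words that each numbered library is a separate mouse.

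TPM were summed per gene name. The 16423 genes that reached 1 TPM in 3 or more libraries were fitted on log2(TPM + 1) with limma 3.58.1 (R 4.3.3): 4 group means, 8 residual degrees of freedom, eBayes with trend, Benjamini-Hochberg adjustment over all tested genes, threshold 0.05. The script was tested on simulated data. Single values were tested by exact permutation of libraries. Members and lists were chosen with earlier results of these data known. Named were all members, per list the called genes with the 2 largest differences in each direction, tissue markers, and the 3 genes most like each tested member; Timp4, Ptn, Gad1, Neurod6, Gja1 and Hapln3 were named after their values were seen. Some genes that this rule names are not reported here. Alternatives were no filter, a pseudocount of 0.1, median-of-ratios scaling, a replicate block, each library left out, the groups of the contrast alone, myelin and striatal scores as covariates, and the largest row alone. Gene positions came from GENCODE M21 and promoter sequences from RefSeq (GRCm38.p6).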

Additional observations from a re-analysis of the deposited data

How the results depend on the processing

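Among the 5 tested members, the count called stayed at its value except as follows: between strains it was 1 under CRS with only the groups of the contrast in the fit (Hapln4, adjusted p = 0.018, limma), and averaged it was 2 with median-of-ratios scaling, 2 with the replicate block, 1 with no filter and 0 with covariates in place of 3. Leaving out each library in turn gave 0 to 1 in controls and 0 to 3 averaged. The numbers shared between strains are of different mice, and same-numbered libraries did not deviate together (r from -0.242 to -0.029 across genes). Under the replicate block Hapln4 was lost at 0.90 (adjusted p = 0.066, limma). It turned the CRS differences of Ncan (0.16) and Hapln4 (0.0063) in B6, of Hapln4 in BALB/c (0.11), and of Hapln4 (0.0572) and Tnr (0.0109) averaged. Covariates turned Hapln4 (-0.51) and Tnr (-0.32) between strains under CRS and Hapln4 (-0.23) and Tnr (-0.35) averaged. They also turned the CRS differences in B6 of Bcan (-0.0215), Ncan (0.0548), Hapln1 (0.0017) and Hapln4 (0.25), those in BALB/c of Hapln1 (0.0438) and Tnr (-0.0534), that of Hapln1 averaged (0.0228), and the Hapln4 interaction (-0.56). Median-of-ratios scaling turned Tnr in BALB/c (-0.0523) and Ncan averaged (-0.0139) for CRS, and the largest row turned Tnr between strains (-0.0474). Leaving out a library moved values across 0 between strains for Ncan under CRS (-0.17 to 0.10) and Tnr averaged (-0.0564 to 0.0954). For CRS in B6 it did so for Ncan (-0.23 to 0.0346), Hapln1 (-0.41 to 0.0459) and Hapln4 (-0.66 to 0.34), and in BALB/c for Ncan (-0.0452 to 0.28), Hapln1 (-0.14 to 0.18) and Tnr (-0.15 to 0.19). Averaged it did so for Ncan (-0.0637 to 0.10), Hapln1 (-0.21 to 0.0211) and Hapln4 (-0.40 to 0.10), and for the interactions of Hapln1 (-0.0509 to 0.41) and Hapln4 (-0.49 to 0.51). The causes were not tested. None of the reversed values was called. Over all genes, calls between strains went from 777 to 318 with covariates, 443 with only the groups and 425 to 1378 without 1 library in controls. They went from 1264 to 240 with covariates, 750 with the block and 539 to 920 without 1 library under CRS, and from 3021 to 408 with covariates and 1972 to 3787 without 1 library averaged. For CRS they went from 0 to 7 with no filter, 2 with the pseudocount of 0.1 and 1 with the block in B6, and from 1 to 0 in BALB/c with these 3 and with median-of-ratios scaling. Averaged, the count was 2 in place of 1 with no filter and with that scaling, and the interaction had 2 with no filter and 1 with covariates in place of 0. Depth is unknown for TPM, so what it limits could not be measured.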
